A study of Rattus norvegicus with 12 samples.

Results

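Fibroblast growth factor (FGF) receptors and the feedback inhibitors of the ERK pathway were followed in rat knee articular cartilage through 10 genes. They were the ligand genes Fgf2 and Fgf18, the receptor genes Fgfr1, Fgfr2 and Fgfr3, the Sprouty genes Spry1, Spry2 and Spry4, and the ERK phosphatase genes Dusp6 and Dusp4. Every probe set whose only gene symbol in the array annotation is 1 of these was taken, which gave 18 of the 31099 probe sets. Of the 18, 10 probe sets of 7 genes exceeded a log2 value of 4 in at least 3 of the 12 arrays and entered the tests. The other 8 stayed under 4 in all 12 arrays, among them the only probe sets of Fgf2, Fgf18 and Dusp4.

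Cartilage had been taken from knees with surgically induced osteoarthritis (OA) or from knees with a sham operation, 2 or 8 weeks later, with 3 arrays for each of the 4 groups. Each value is the deposited log2 GCRMA value of 1 probe set on 1 array. RNA was extracted from homogenized tissue, with no isolation of cells stated. For all 4 groups, strain, sex, age, the operated structures and whether an array holds 1 animal or a pool are not given in the sources used here. Nothing in the labels shows that the arrays of a group are different animals. P-values here thus reflect the spread of these samples alone, which may be technical. In whole tissue, fewer cells of a type and less RNA per cell cannot be told apart.

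FGF ligands bind receptor tyrosine kinases at the cell surface together with heparan sulfate. The bound receptor recruits adaptor proteins, activates RAS and then the kinases RAF, MEK and ERK. Active ERK switches on genes for its own inhibitors: Sprouty proteins act between the receptor and RAF, and the phosphatases DUSP6 and DUSP4 remove phosphate from ERK. In cartilage, FGFR3 is known as a brake on growth plate chondrocytes, FGF18 as a ligand that favours matrix formation, and FGF2 as a factor stored in the matrix around chondrocytes.

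The promoters of Spry2 and Spry4 are shown first, since the called differences of the Sprouty genes are theirs. Each line holds the 250 bases before the gene start as annotated by RefSeq in the build GRCr8, read 5′ to 3′ on the strand of the gene. RefSeq promoter sequences were found for 8 of the 10 genes, all but Fgfr1 and Dusp4, and those of Spry1 and Dusp6 are not shown because they reach into the annotated gene. For the same reason a second Spry2 sequence, at chr15:89109843-89110092, is not shown; it holds none of the motifs below. Capitals mark exact matches, on either strand, to the ETS core CCGGAA, the GC box GGGCGG, the cAMP response element TGACGTCA or the CCAAT box CCAAT.
Spry2: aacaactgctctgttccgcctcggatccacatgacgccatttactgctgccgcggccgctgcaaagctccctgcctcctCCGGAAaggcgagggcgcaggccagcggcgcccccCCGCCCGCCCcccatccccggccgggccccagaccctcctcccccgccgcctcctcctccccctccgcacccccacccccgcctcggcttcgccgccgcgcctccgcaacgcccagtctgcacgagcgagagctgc
Spry4: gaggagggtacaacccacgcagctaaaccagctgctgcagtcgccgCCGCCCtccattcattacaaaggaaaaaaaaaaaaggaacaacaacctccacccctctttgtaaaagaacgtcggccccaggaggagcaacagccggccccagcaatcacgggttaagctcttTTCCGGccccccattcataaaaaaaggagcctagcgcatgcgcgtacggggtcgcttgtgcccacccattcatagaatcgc
The Spry2 sequence shown lies at chr15:89111927-89112176 on the minus strand and holds 1 ETS core at bases 80 to 85. It also holds 2 GC boxes on its opposite strand, at bases 115 to 120 and 119 to 124, which overlap each other. The Spry4 sequence, at chr18:30702547-30702796 on the minus strand, holds 1 ETS core at bases 170 to 175 and 1 GC box at bases 47 to 52, both on its opposite strand. Neither sequence holds the cAMP response element or the CCAAT box. Among all 33469 rat promoter sequences of this length, 12.6% held the ETS core, 30.5% the GC box, 34.0% the CCAAT box and 1.59% the cAMP response element. A match describes letters only; binding was not measured.

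Spry2 was the member with a called difference between OA and sham, at 8 weeks. Its mean was 2.03-fold higher in OA there and 1.02-fold higher at 2 weeks. The 8-week call held in 7 of 22 alternatives, and the change of the effect between the times was not called (limma adjusted p = 0.324). The FGF receptor transcripts and the other feedback genes did not pass the test at either time. Over time, 1 Dusp6 probe set fell in both surgery groups and Spry2 rose in OA. Spry4 changed by -1.04 in OA, which was called, and by -0.94 in sham, which was not; the difference between these changes was -0.10 (limma adjusted p = 0.952), and with the muscle marker level as a covariate the OA call was lost. All differences below are limma estimates with their standard errors (SE), and a call is a Benjamini-Hochberg adjusted p under 0.05 over 15934 probe sets.

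**Figure D1:**
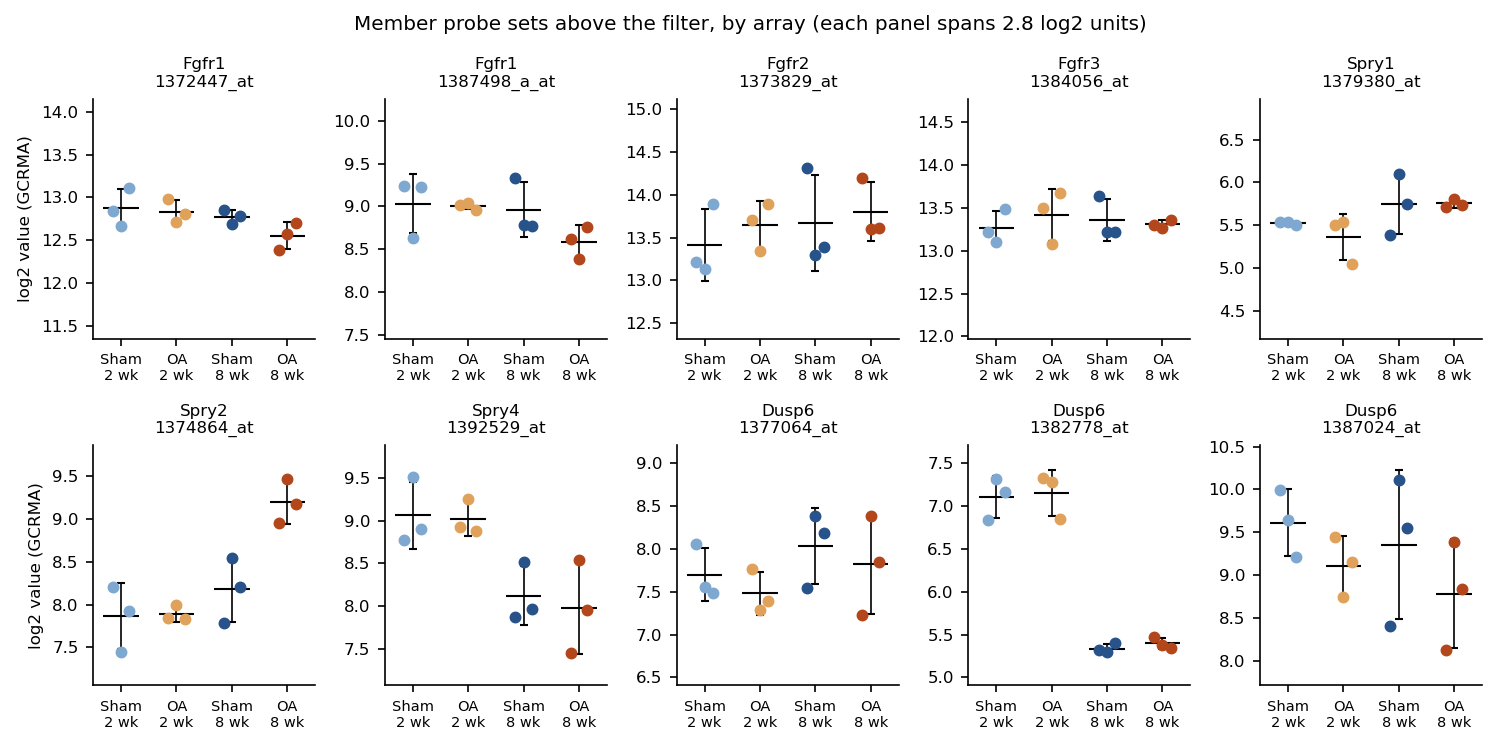
Log2 value of the 10 member probe sets above the filter on each array, by group, with the group mean (horizontal line) and SD (error bar) of 3 arrays. All panels span 2.8 log2 units. The 3 OA arrays at 8 weeks lie above all other arrays for Spry2. The 6 arrays at 8 weeks lie below the 6 at 2 weeks for Spry4 and for Dusp6 1382778_at. Of all kept probe sets, 20.7% have the times wholly apart.

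Cartilage transcripts were abundant on all arrays: Col2a1, the main cartilage collagen gene, ranged from 15.88 to 16.27 and Acan, the gene of the proteoglycan aggrecan, from 14.10 to 14.64. The mean level of the 10 measured chondrocyte markers was 13.62 to 13.93 in OA at 8 weeks and 13.94 to 14.28 in sham at 8 weeks. Markers of other cell types moved with surgery at 8 weeks. Of 15 skeletal muscle markers, 14 had a higher mean in OA than in sham at 8 weeks, with an array mean of 10.25 to 14.64 in OA and 5.91 to 10.91 in sham. All 14 macrophage markers had a lower mean in OA at 8 weeks (6.65 to 6.79 against 7.68 to 10.35), and so did 5 of 6 osteoclast markers (9.98 to 11.11 against 12.49 to 12.79), 7 of 8 osteoblast and osteocyte markers (10.52 to 11.22 against 11.73 to 12.19) and all 7 endothelial markers (4.39 to 5.21 against 5.23 to 6.60). Synovial fibroblast and tendon markers spanned 11.55 to 11.74 in OA and 11.66 to 12.22 in sham. Over all 9247 genes, 2.45% were called lower in OA at 8 weeks by limma. Among the markers these were 4 of 14 macrophage, 5 of 6 osteoclast, 3 of 8 osteoblast, 2 of 10 chondrocyte and 1 of 9 synovial genes. No muscle or endothelial marker was called, with 8 of 15 and 4 of 7 at an unadjusted p under 0.05, beside 3423 of all 15934 probe sets. At 2 weeks the OA and sham ranges overlapped for every one of these lists except the osteoclast markers (12.35 to 12.45 against 12.49 to 12.94). The part of these shifts in the 8-week results was not tested, apart from a fit with the muscle level as a covariate, given below where it bears on a member.

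The ligand genes Fgf2, at chr2:122164454-122218796 (GRCr8, as all positions here), and Fgf18, at chr10:18210240-18241929, gave no usable signal. Fgf18 lay between 2.16 and 2.23 on all 12 arrays. Fgf2 lay between 2.98 and 3.05 on the 6 arrays at 2 weeks and between 2.50 and 2.56 on the 6 at 8 weeks. Values this low are near the floor of the scale, and neither gene was tested. They show only that no signal over 4 was measured with these probe sets.

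Of the receptors, Fgfr1, at chr16:73194631-73249855, encodes the receptor that is linked to catabolic responses of articular chondrocytes. Its probe set 1372447_at read 12.39, 12.57 and 12.70 in OA at 8 weeks and 12.85, 12.69 and 12.78 in sham at 8 weeks. The OA and sham values overlapped only between 12.69 and 12.70, and the difference was -0.22 ± 0.13 (SE; 95% confidence interval -0.51 to 0.07; limma adjusted p = 0.36). The other Fgfr1 probe set, 1387498_a_at, read 8.62, 8.38 and 8.76 in OA and 9.33, 8.78 and 8.77 in sham at 8 weeks. All 3 OA arrays lay below the 3 sham arrays, by a gap of 0.01 at the nearest pair, with a difference of -0.37 ± 0.20 (interval -0.81 to 0.07; limma adjusted p = 0.308). Both Fgfr1 probe sets thus had a lower mean in OA at 8 weeks, and neither passed the test. At 2 weeks the differences were -0.04 ± 0.13 (1372447_at) and -0.03 ± 0.20 (1387498_a_at), with adjusted p of 1.0 by limma for both.

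Fgfr2, at chr1:194175703-194280914, encodes a receptor with a role in bone formation. Its probe set above the filter, 1373829_at, read 14.20, 13.60 and 13.61 in OA and 14.31, 13.30 and 13.39 in sham at 8 weeks. Replicate 1 was the highest array in each of these groups, and the groups overlapped. The difference was 0.13 ± 0.31 at 8 weeks (interval -0.56 to 0.82; limma adjusted p = 0.856) and 0.23 ± 0.31 at 2 weeks (interval -0.46 to 0.92). With the muscle marker level as a covariate the 8-week value was -0.39. The other 4 Fgfr2 probe sets stayed between 1.64 and 3.47.

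Fgfr3, at chr14:81211800-81227215, encodes the receptor known as a brake on the growth plate. Probe set 1384056_at read 13.30, 13.27 and 13.36 in OA and 13.64, 13.22 and 13.22 in sham at 8 weeks, and 13.50, 13.08 and 13.67 in OA and 13.22, 13.10 and 13.49 in sham at 2 weeks. The groups overlapped at both times. The difference was -0.05 ± 0.17 at 8 weeks (interval -0.43 to 0.33; limma adjusted p = 0.907) and 0.15 ± 0.17 at 2 weeks (interval -0.24 to 0.53). The widest bound of these intervals is 0.53 on the log2 scale, and with 3 arrays a group, differences inside them remain possible. The intervals are not a limit of detection. At 2 weeks the smallest limma adjusted p over all probe sets was 0.868, so larger differences also went uncalled. A second Fgfr3 probe set, 1369373_at, stayed between 2.39 and 3.05.

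Spry2, at chr15:89106809-89111926, encodes a Sprouty protein, an inhibitor of receptor tyrosine kinase signalling that ERK activity induces. Probe set 1374864_at read 8.95, 9.47 and 9.18 in OA at 8 weeks and 7.78, 8.55 and 8.21 in sham at 8 weeks. At 2 weeks it read 7.84, 8.00 and 7.83 in OA and 8.21, 7.45 and 7.93 in sham. The 3 OA arrays at 8 weeks lay above the other 9 arrays, while the OA values at 2 weeks lay inside the sham range. The 8-week means were 9.20 ± 0.26 (SD, n = 3) in OA and 8.18 ± 0.38 (SD, n = 3) in sham, a difference of 1.02 ± 0.23 (SE; interval 0.51 to 1.54; limma adjusted p = 0.0451). At 2 weeks the difference was 0.02 ± 0.23 (interval -0.49 to 0.54; limma adjusted p = 1.0).

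The Spry2 call at 8 weeks stood close to the threshold. It held in 7 of 22 alternatives and missed in 15, with differences from 0.82 to 1.46 and adjusted p from 0.03 to 0.144. When each array was left out in turn, the call held without sham replicate 1 or sham replicate 2 at 2 weeks (limma adjusted p = 0.0494 and 0.0402), and leaving out any other array gave adjusted p from 0.054 to 0.139. The limma adjusted p was 0.0628 with a replicate block over both times and 0.0319 with a replicate block within each time. In all 22 alternatives Spry2 was higher in OA. In OA at 8 weeks, replicates 1, 2 and 3 had muscle marker levels of 14.64, 11.67 and 10.25 and Spry2 values of 8.95, 9.47 and 9.18. With the muscle level as a covariate the difference was 1.46 (limma adjusted p = 0.0654). The part of muscle and of the other cell types in the Spry2 difference was not tested otherwise.

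**Figure D2:**
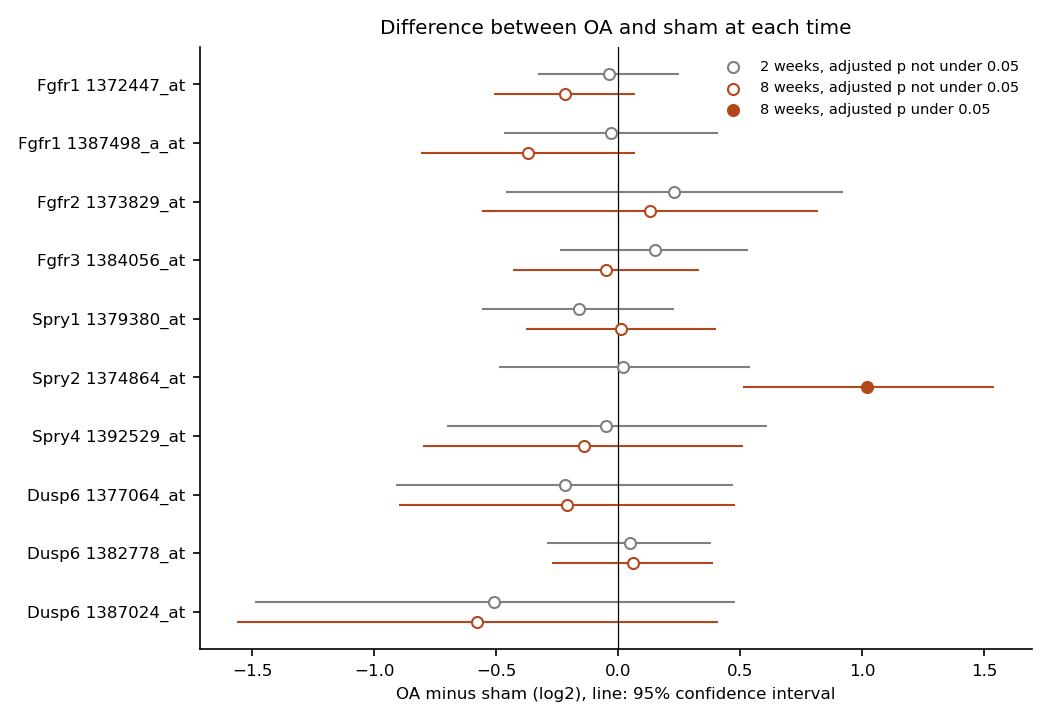
OA minus sham in log2 for the 10 member probe sets above the filter at 2 weeks (grey) and 8 weeks (orange), with 95% confidence intervals as lines. The filled point is Spry2 at 8 weeks (1.02); the intervals of the other 9 probe sets include 0 at both times.

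Across the members, 1 of 10 probe sets was called higher in OA at 8 weeks and 0 lower. Over all 15934 probe sets, 3.46% were called at 8 weeks, made up of 1.51% called higher and 1.95% called lower. With 1 call among 10, nothing is read from the count about the genes as a group. The median member difference was -0.10, beside 0.01 over all probe sets. Of the 10 probe sets, 2 had groups that did not overlap (Spry2 higher, Fgfr1 1387498_a_at lower), beside 25.1% of all probe sets. With the number as a block within each time, 1037 instead of 552 probe sets were called and Spry2 remained the called member.

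At 2 weeks 0 of 10 member probe sets were called, as were 0.0% of all 15934 probe sets, by limma. Groups overlapped for all 10, beside 5.38% of all probe sets without overlap. At an unadjusted p under 0.05 there were 0 members and 269 probe sets in all. Member differences at 2 weeks ran from -0.51 (Dusp6 1387024_at) to 0.23 (Fgfr2), with a median of -0.03 beside -0.01 over all probe sets. The count over all probe sets was 1 without OA replicate 1 at 2 weeks and 0 under every other alternative.

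Whether the effect of OA differed between 8 and 2 weeks was tested directly. For Spry2 the difference between the effects was 1.0 ± 0.33 (interval 0.27 to 1.73; limma adjusted p = 0.324), so the change of the effect did not pass the correction. It was positive in all 21 alternatives, with adjusted p from 0.165 to 0.553. No other member had an unadjusted p under 0.05, and 0 of 10 were called, beside 0.138% of all probe sets. With the number as a block within each time 67 instead of 22 probe sets were called, none of them a member.

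Spry4, a further Sprouty gene at chr18:30687633-30702546, did not differ between OA and sham beyond the spread of the arrays. Probe set 1392529_at read 8.93, 9.25 and 8.88 in OA and 8.78, 9.51 and 8.90 in sham at 2 weeks. At 8 weeks it read 7.45, 8.54 and 7.96 in OA and 7.88, 8.52 and 7.97 in sham. Surgery groups overlapped at each time, whereas the 6 arrays at 2 weeks lay above the 6 at 8 weeks. Among all kept probe sets, 20.7% had the 2 times wholly apart in this way, in either direction. OA minus sham was -0.05 ± 0.29 at 2 weeks (interval -0.70 to 0.61) and -0.14 ± 0.29 at 8 weeks (interval -0.80 to 0.51; limma adjusted p = 0.837).

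Spry1, at chr2:122484995-122490008, also encodes a Sprouty protein. Its probe set 1379380_at read 5.71, 5.81 and 5.74 in OA and 5.39, 6.10 and 5.75 in sham at 8 weeks, and 5.50, 5.54 and 5.05 in OA and 5.54, 5.54 and 5.50 in sham at 2 weeks. The OA values at 8 weeks lay inside the sham range. The difference was 0.01 ± 0.18 at 8 weeks (interval -0.38 to 0.40; limma adjusted p = 0.981) and -0.16 ± 0.18 at 2 weeks (interval -0.56 to 0.23). The 8-week interval does not reach the 1.02 measured for Spry2 (interval 0.51 to 1.54), but no test between the genes was made. Spry1 lay at lower values than Spry2, and GCRMA compresses differences near its floor. The changes of these genes are thus not compared in size.

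Dusp6, at chr7:35979502-35983834, encodes a phosphatase that dephosphorylates ERK in the cytoplasm, and it is a widely used readout of FGF and ERK activity. The probe set 1387024_at read 8.12, 9.39 and 8.84 in OA and 8.41, 10.11 and 9.55 in sham at 8 weeks, and 9.44, 8.74 and 9.15 in OA and 9.99, 9.64 and 9.21 in sham at 2 weeks. For each replicate number at each time, the OA array lay below the sham array, though the labels state no pairing. The difference was -0.58 ± 0.44 at 8 weeks (interval -1.56 to 0.41; limma adjusted p = 0.496) and -0.51 ± 0.44 at 2 weeks (interval -1.49 to 0.48; limma adjusted p = 1.0). With the number as a block within each time, the SE was 0.18 and the limma adjusted p was 0.107 at 8 weeks and 1.0 at 2 weeks. With the muscle level as a covariate the 8-week difference was 0.24, so its direction is not settled by these arrays.

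The probe set Dusp6 1377064_at read 7.23, 8.39 and 7.85 in OA and 7.54, 8.38 and 8.19 in sham at 8 weeks, and 7.76, 7.29 and 7.39 in OA and 8.06, 7.55 and 7.49 in sham at 2 weeks. It varied as 1387024_at did, with replicate 1 lowest and replicate 2 highest in both 8-week groups. The difference was -0.21 ± 0.31 at 8 weeks (interval -0.90 to 0.48; limma adjusted p = 0.753), 0.28 with the muscle covariate, and -0.22 ± 0.31 at 2 weeks. The third, 1382778_at, read 5.47, 5.38 and 5.34 in OA and 5.32, 5.29 and 5.40 in sham at 8 weeks, against 7.33, 7.28 and 6.85 in OA and 6.84, 7.32 and 7.16 in sham at 2 weeks. Its surgery groups overlapped at both times, and the difference was 0.06 ± 0.15 at 8 weeks (interval -0.27 to 0.39; limma adjusted p = 0.861) and 0.05 ± 0.15 at 2 weeks. The 3 Dusp6 probe sets therefore gave no called OA effect at either time.

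**Figure D3:**
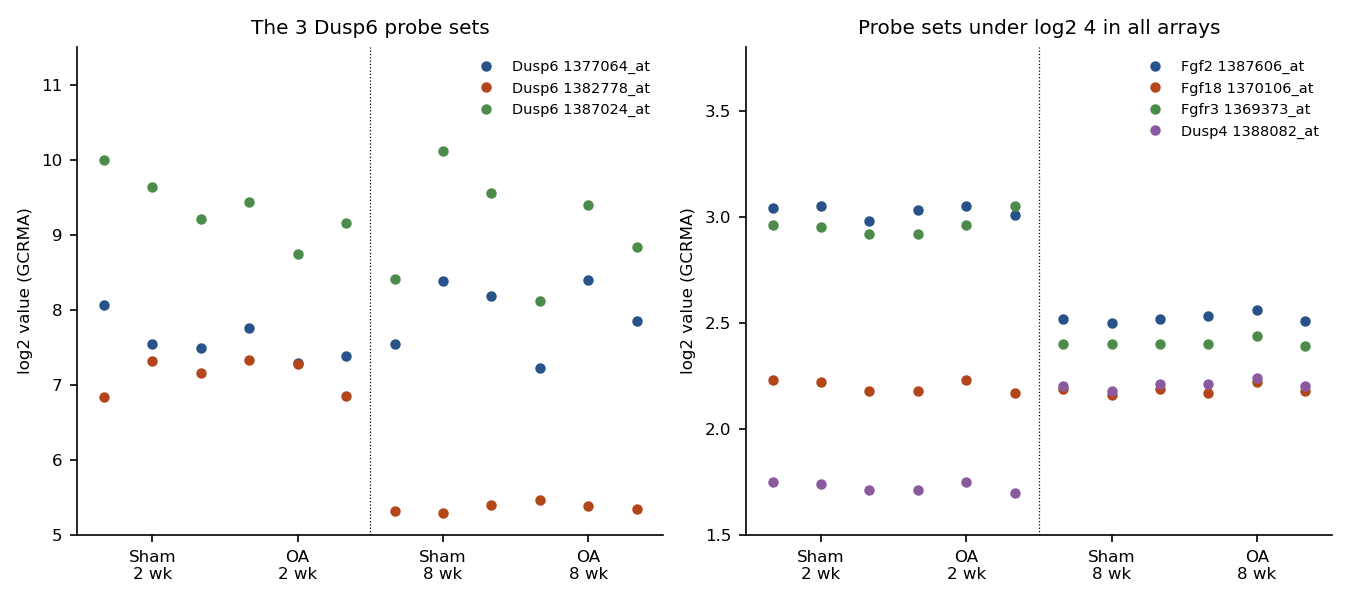
Log2 values by array, in the order sham and OA at 2 weeks, then sham and OA at 8 weeks, with 3 arrays per group and a dotted line between the times; levels of different probe sets are not comparable. On the left, Dusp6 1382778_at drops between the times while the other 2 Dusp6 probe sets overlap; on the right, Fgf2, Fgfr3 1369373_at and Dusp4, all under 4, are parted by time within a narrow spread, and Fgf18 is not.

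Within the 8-week groups the feedback probe sets put the arrays in a like order. Of 6 feedback probe sets, 5 were lowest in replicate 1 and highest in replicate 2, in OA and again in sham. These were Spry1, Spry2, Spry4 and, for 1 gene, Dusp6 1387024_at and 1377064_at. The share of all probe sets with this order was not counted, so nothing is read from it about the feedback genes. At 2 weeks no array was lowest or highest in more than 4 of the 6. The muscle marker level was highest in replicate 1 of both 8-week groups (14.64 in OA and 10.91 in sham) and in sham lowest in replicate 2 (5.91); in OA it was lowest in replicate 3 (10.25). The part of the muscle level in this shared order was not tested beyond the covariate fits.

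The comparisons of 8 with 2 weeks use the same 12 arrays as those of OA with sham. Dusp6 1382778_at fell by 1.77 on the log2 scale in sham (SE 0.15; limma adjusted p = 9.1e-06) and by 1.75 in OA (SE 0.15; limma adjusted p = 8.46e-06), and both calls held in all 21 alternatives. The other 2 Dusp6 probe sets did not follow it. Their changes were -0.26 ± 0.44 in sham and -0.33 ± 0.44 in OA for 1387024_at, and 0.34 ± 0.31 in both for 1377064_at, with no call in any of 21 alternatives. The probe sets of 1 gene thus disagreed on the time course of Dusp6, and no direction over time is given for the gene.

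Spry4 fell in OA between 2 and 8 weeks, by 1.04 on the log2 scale (SE 0.29; 2.05-fold; limma adjusted p = 0.0208). In sham the change was -0.94 ± 0.29 (limma adjusted p = 0.0511), which missed the threshold. It passed in 6 of 21 alternatives, among them a replicate block over both times (limma adjusted p = 0.00145). The sham change was also called without OA replicate 1, OA replicate 2 or sham replicate 2 at 8 weeks (limma adjusted p = 0.0274, 0.0267 and 0.0352). The OA call was lost without OA replicate 2 at 2 weeks, OA replicate 1 at 8 weeks or OA replicate 3 at 8 weeks (limma adjusted p = 0.0724, 0.0697 and 0.0527). With the muscle covariate the OA change was -0.54 (limma adjusted p = 0.514).

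Spry2 rose in OA between 2 and 8 weeks by 1.31 ± 0.23 (2.48-fold; limma adjusted p = 0.00157), with no overlap, and the call held in all 21 alternatives with changes from 1.13 to 1.91. In sham it changed by 0.31 ± 0.23 (limma adjusted p = 0.477), with overlap between 7.78 and 8.21. Spry1 changed by 0.39 ± 0.18 in OA and 0.22 ± 0.18 in sham, neither called (limma adjusted p = 0.117 and 0.534). The Fgfr1 probe sets changed by -0.28 ± 0.13 (1372447_at) and -0.42 ± 0.20 (1387498_a_at) in OA, with adjusted p of 0.125 and 0.133 by limma. Among the alternatives, both passed only with quantile normalization added (limma adjusted p = 0.0441 and 0.0397). Fgfr2 and Fgfr3 changed by 0.16 ± 0.31 and -0.11 ± 0.17 in OA and by 0.26 ± 0.31 and 0.09 ± 0.17 in sham.

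In these time comparisons 1 of 10 member probe sets was called lower in sham and none higher, beside 18.7% of all probe sets called (12.5% higher and 6.24% lower). In OA 1 was called higher and 2 lower, beside 34.1% called (21.7% higher and 12.4% lower). Both member shares lie near or under the background. Groups did not overlap for 2 of 10 member probe sets in sham, beside 35.2% of all, and for 6 of 10 in OA, beside 46.6%. Very dim probe sets also shifted with time: of 12924 probe sets under 3.5 in all 12 arrays, 25.6% had 2-week arrays wholly apart from the 8-week arrays, and 9.73% were apart with means over 0.3 apart. Among the 8 member probe sets left out, 5 had the times wholly apart, and 3 of these (Fgf2, Fgfr3 1369373_at and Dusp4) by over 0.3. One of them was Dusp4 (chr16:64079893-64101396), an inducible nuclear phosphatase gene for ERK, which lay between 1.70 and 1.75 at 2 weeks and 2.18 and 2.24 at 8 weeks. The labels do not say whether arrays of both times were processed in 1 run, so time and processing cannot be told apart. Equalizing the array medians moved the median time change by -0.17 in sham and -0.18 in OA. Relative to that shift, Spry2 changed by 1.13 in OA (limma adjusted p = 0.00393), Spry4 by -1.22 in OA and -1.11 in sham (limma adjusted p = 0.00795 and 0.0191), and Dusp6 1382778_at by -1.93 in OA and -1.94 in sham.

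Beyond the members, 104 other genes of the route from FGF to ERK were listed, of which 92 had a probe set and 55 passed the filter. At 8 weeks 0 of the 55 were called higher in OA and 1 lower, beside 1.03% and 2.45% of 9247 genes (3.48% in all). An unadjusted limma p under 0.05 was found for 12 of the 55, a share near that of all probe sets (3423 of 15934). The same background stands beside the 8-week counts by list below. The median difference of the 55 genes was 0.04, beside -0.03 over all genes. The called gene was Elk3, which encodes an ETS factor that ERK phosphorylates. It read 11.69, 11.35 and 11.78 in OA and 12.16, 12.25 and 12.28 in sham, a difference of -0.62 ± 0.13 (limma adjusted p = 0.0341). The Elk3 call was lost without OA replicate 1 at 2 weeks (0.0515), sham replicate 1 or 2 at 2 weeks (0.0537, 0.052), OA replicate 1 or 2 at 8 weeks (0.0541, 0.0806) or sham replicate 2 or 3 at 8 weeks (0.111, 0.126), as limma adjusted p. It was also lost with array medians equalized (0.0777), with only the arrays compared (0.132) and with the muscle covariate (-0.52; 0.325).

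Most FGF ligand genes were, like Fgf2 and Fgf18, under the filter, since 3 of 20 other ligand genes passed it. Fgf13, which encodes an FGF homologue that stays inside the cell and binds sodium channels, read 11.65, 11.06 and 10.86 in OA and 9.72, 10.81 and 9.67 in sham at 8 weeks. The OA arrays lay above the sham arrays at 8 weeks, beside 25.1% of all probe sets without overlap. The difference was 1.12 ± 0.42 (limma adjusted p = 0.165), and at 2 weeks it was 1.21 ± 0.42 with overlap (limma adjusted p = 1.0). Fgf1 differed by 0.26 ± 0.52 at 8 weeks and -0.24 ± 0.52 at 2 weeks.

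Of 15 other receptors, co-receptors and carriers, 11 passed the filter, and none was called at either time by limma, with unadjusted p under 0.05 for 2 at 8 weeks and 0 at 2 weeks. Those 2 were the heparan sulfate proteoglycan genes Gpc4, at 0.61 ± 0.21 (limma adjusted p = 0.146), and Sdc3, at -0.42 ± 0.16 (limma adjusted p = 0.163). Gpc4 and Sdc3 had OA and sham arrays without overlap at 8 weeks, in opposite directions. Flrt2, another gene of the list, also had no overlap, at -0.31 ± 0.16. Over all probe sets, 25.1% had no overlap at 8 weeks, so nothing is read from this. Of 25 adaptor and cascade genes, 15 passed the filter and none was called at either time, with unadjusted p under 0.05 for 3 at 8 weeks and 0 at 2 weeks. Sos2, which encodes an exchange factor that loads RAS with GTP, differed by 0.47 ± 0.12 at 8 weeks (limma adjusted p = 0.0643). It passed in 5 of 22 alternatives, among them the number as a block within each time (0.47; limma adjusted p = 0.0307). Sos2 also passed without OA replicate 1 at 2 weeks (0.0453). Araf, a RAF kinase gene, differed by 0.41 ± 0.12 (limma adjusted p = 0.0848).

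Of 22 other feedback and negative regulators, 10 passed the filter, and none was called at 8 weeks by limma, with 3 at an unadjusted p under 0.05. Dusp1, an early response phosphatase gene that acts on several MAP kinases, read 14.51, 14.48 and 14.48 in OA and 13.86, 12.80 and 12.90 in sham at 8 weeks. The 3 OA arrays lay above sham, beside 25.1% of all probe sets without overlap at 8 weeks, and within 0.03 of each other. The difference was 1.30 ± 0.35 (limma adjusted p = 0.0734), which passed in 5 of 22 alternatives and missed in the rest. Among those passing were the number as a block within each time (limma adjusted p = 0.0368), the fit without sham replicate 3 at 2 weeks (0.0373) and that without sham replicate 1 at 8 weeks (0.0247). Rasa1, which encodes a protein that turns RAS off, differed by 0.47 ± 0.12 (limma adjusted p = 0.0582). It passed in 3 of 22 alternatives, among them the block within each time (limma adjusted p = 0.0452). From 2 to 8 weeks in OA, Dusp1 rose by 1.76 ± 0.35 (limma adjusted p = 0.00315); with the muscle covariate this was 1.33 (0.162).

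**Figure D4:**
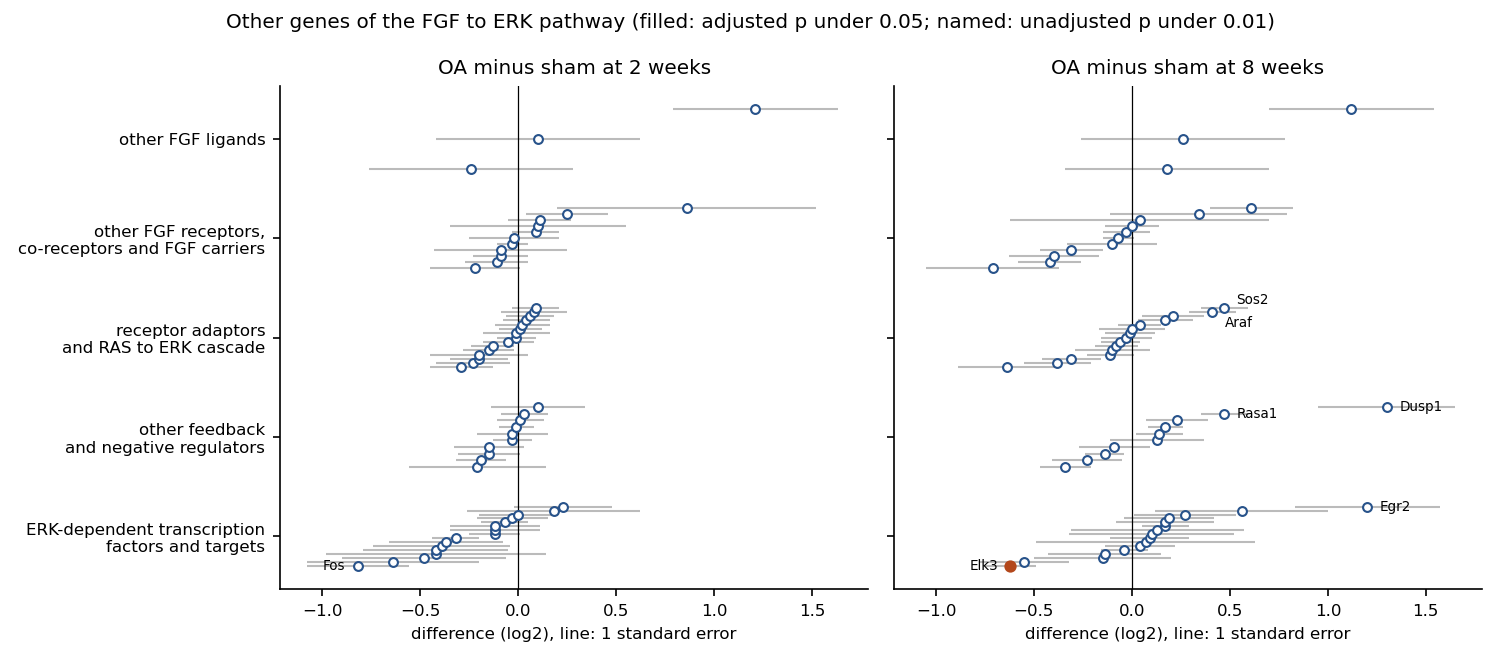
OA minus sham in log2 with 1 SE for the 55 other pathway genes above the filter, in 5 lists, at 2 weeks (left) and 8 weeks (right), ordered by size within a list; names mark an unadjusted limma p under 0.01. The filled point is Elk3 (-0.62), the called gene of the 55; Dusp1 (1.30) and Egr2 (1.20) lie farthest right among the named genes without a call.

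Of 22 ERK-dependent transcription factors and targets, 16 passed the filter. At 2 weeks 14 of the 16 had a lower mean in OA, with a median of -0.22 beside -0.01 over all genes and no call by limma; 2 had an unadjusted p under 0.05. These were Fos, an early response gene of ERK signalling, at -0.82 ± 0.26 (limma adjusted p = 1.0), and Ier2, another early response gene, at -0.32 ± 0.12 (limma adjusted p = 1.0). Fos read 13.88, 13.61 and 12.91 in OA and 14.14, 14.16 and 14.55 in sham at 2 weeks, with no overlap, beside 5.38% of all probe sets without overlap. At 8 weeks 11 of the 16 had a higher mean in OA, with a median of 0.09 beside -0.03 over all genes. The shares of all genes with a lower or higher mean were not counted, so nothing is read from these counts about the list. The change of the effect between the times was 1.09 ± 0.36 for Fos (limma adjusted p = 0.334) and 1.62 ± 0.52 for Egr2, an early growth response factor gene (limma adjusted p = 0.316). None of the 55 genes had a called change of the effect by limma, beside 0.162% of all genes. An unadjusted p under 0.05 was found for 8 of the 55, beside 1760 of all 15934 probe sets.

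At 2 weeks none of the 55 was called by limma, beside 0.0% of all genes. An unadjusted p under 0.05 was found for 3 of the 55, beside 269 of all 15934 probe sets. In the other lists the differences with the smallest p at 2 weeks included Fgfbp1, the gene of an FGF carrier protein, at 0.86 ± 0.66, Rps6ka3, a gene of a kinase that ERK activates, at -0.29 ± 0.16, and Dusp7, a cytoplasmic ERK phosphatase gene, at -0.19 ± 0.13 (limma adjusted p = 1.0 for each). Of these, Dusp7 had groups that did not overlap, beside 5.38% of all probe sets at 2 weeks.

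In sham, 1 of the 55 rose and 1 fell between 2 and 8 weeks, beside 14.8% of all genes called (9.46% higher and 5.39% lower). In OA 8 rose and 6 fell, beside 29.3% called (16.5% higher and 12.8% lower). Sdc3 fell in both, by 0.73 in sham (SE 0.16; limma adjusted p = 0.00708) and by 1.03 in OA (SE 0.16; limma adjusted p = 0.000557). Hspg2, the perlecan gene, whose product stores FGF2 in the matrix, went from means of 2.28 to 4.29 in sham and 2.25 to 4.22 in OA. Hspg2 passed the filter only through its 8-week values, so it had to differ between the times, and its place among the genes that rose rests on that filter.

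In OA, Sos2 (0.58 ± 0.12), Rasa1 (0.54 ± 0.12), Ier2 (0.62 ± 0.12) and Dusp1 rose, and Flrt2, the gene of an FGF receptor partner (-0.76 ± 0.16), and Elk3 (-0.52 ± 0.13) fell, with limma adjusted p from 0.0028 to 0.0108. Leaving out any single array ended none of these calls, whereas the muscle covariate ended those of Sos2 (0.225), Ier2 (0.0668), Dusp1 (0.162), Flrt2 (0.096) and Elk3 (0.297), and also that of Sdc3 (0.062). The Rasa1 call was lost with array medians equalized (0.36; 0.0562), and the Elk3 call with only the arrays compared (0.0594). Egr2 rose by 1.43 ± 0.37 (limma adjusted p = 0.013), and the call was lost without OA replicate 2 at 2 weeks (0.0528) and with the muscle covariate (1.55; 0.142). Errfi1, an inhibitor gene of the EGF receptor (0.55 ± 0.16), and Fos (0.75 ± 0.26) rose, and the adaptor gene Gab1 (-0.55 ± 0.17), the MEK gene Map2k2 (-0.75 ± 0.25) and Dusp7 (-0.39 ± 0.13) fell, with limma adjusted p from 0.0227 to 0.0465. The Gab1 call was lost without OA replicate 1 at 2 weeks, or OA replicate 1 or 3 at 8 weeks (0.0966 to 0.105), and the Errfi1 call without OA replicate 2 or 3 at 2 weeks or OA replicate 2 or 3 at 8 weeks (0.0524 to 0.077). The Map2k2 call was lost without OA replicate 1 or 3 or sham replicate 3 at 2 weeks, or OA replicate 1 or 2 or sham replicate 1 at 8 weeks (0.0511 to 0.124). The Dusp7 call was lost without any OA array or sham replicate 1 or 2 at 2 weeks, or OA replicate 1 or 2 or sham replicate 2 or 3 at 8 weeks (0.0525 to 0.112). The Fos call was lost without OA replicate 2 or 3 or sham replicate 1 or 2 at 2 weeks, or any OA array or sham replicate 2 or 3 at 8 weeks (0.0522 to 0.15). The muscle covariate ended all 5 of these calls, at -0.71 for Gab1 (0.149), 0.56 for Errfi1 (0.229), -0.50 for Map2k2 (0.498), -0.04 for Dusp7 (0.92) and 0.69 for Fos (0.365). With only the arrays compared, the calls of Gab1 (0.0966), Map2k2 (0.0842), Dusp7 (0.109) and Fos (0.108) were lost, and with array medians equalized those of Errfi1 (0.124) and Fos (0.107). Array weights ended those of Map2k2 (0.0635), Dusp7 (0.0652) and Fos (0.0638), and a filter at log2 6 those of Dusp7 (0.0506) and Fos (0.0535). The Fos call was lost as well with no filter (0.0581), with quantile normalization (0.0624) and with the replicate block (0.0645).

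The muscle marker level was also higher at the later time in OA, from an array mean of 5.39 to 8.51 at 2 weeks to 10.25 to 14.64 at 8 weeks. These ranges do not overlap, so in OA the covariate fit cannot tell muscle level and time apart. Some markers in these means, such as Mb and Mybpc2, passed the filter only through 8-week arrays. With the covariate Gab1, Errfi1, Egr2, Ier2 and Flrt2 lost their calls although their changes were no smaller. The changes of Sos2, Dusp1, Elk3, Sdc3, Map2k2, Dusp7 and Fos became smaller. A lost call thus does not assign a change to muscle, whose part was not tested otherwise.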

How the data were processed

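Total RNA of 12 cartilage samples was hybridized to 1-colour Affymetrix arrays. The authors deposited log2 values made with GCRMA, per the submitters' processing notes; its version is not given in the sources used here. These values were used without further normalization. GCRMA compresses differences near its floor.

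Gene symbols came from the array annotation, and 20832 probe sets carried 1 symbol, 436 several and 9831 none. Entrez IDs of 20764 matched the current rat table, which changed 0 symbols. The 57 controls were removed, and 15934 probe sets over log2 4 in at least 3 arrays were kept. For lists, the kept probe set with the highest mean stood for a gene.

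A model with 1 mean per group was fitted with limma 3.58.1 in R 4.3.3 (8 residual and 1.94 prior degrees of freedom), with Benjamini-Hochberg adjustment over all kept probe sets. The fit was tested on simulated data. Tables were made in Python 3.11.15 (numpy 2.4.6, pandas 2.3.3) and plots in matplotlib 3.10.9. Between 48.2% and 49.8% of probe sets per array lay over log2 4, arrays of a group correlated at 0.973 to 0.988 on average, and no 2 arrays were identical. The number of arrays limits the precision.

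Deviations from the group means of same-numbered OA and sham arrays correlated at 0.333, 0.36 and 0.527 at 2 weeks. At 8 weeks they correlated at 0.239, 0.237 and 0.119. Differently numbered OA and sham arrays reached 0.069 at 2 weeks and 0.142 at 8 weeks. Across times, same-numbered arrays ranged from -0.497 to 0.241. Differently numbered arrays of different times reached 0.64 (sham replicate 3 at 2 weeks with sham replicate 1 at 8 weeks). Correlations of this size thus also arose without a shared number. The labels state no pairing, so pairs by number within a time are an assumption. The block within each time rests on it and was added after seeing the data. The other alternatives were 2 filters, 2 normalizations, array weights, a variance trend, a block over both times, a muscle marker covariate, only the arrays compared and each array left out in turn.

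The members, lists and alternatives were chosen with earlier results of these data known. All member probe sets are named. From each other list, comparison and direction, up to 4 called genes with the smallest p could be named, or the 2 genes with the smallest p where none was called. Egr2 at 8 weeks was named after its value was seen.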

Additional observations from a re-analysis of the deposited data

How the results depend on the processing

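At 8 weeks the count of called members fell from 1 to 0 with no filter, with array medians equalized, with only the arrays compared, with the muscle covariate and with the replicate block over both times, and leaving out 1 array gave 0 to 1. The count over all probe sets, 552, became 362 with no filter, 284 with medians equalized, 1567 with array weights, 36 with the muscle covariate, 1037 with the replicate block within each time, 27 with only the arrays compared, and 110 to 979 with 1 array left out. At 2 weeks it was 0 to 1 with 1 array left out. For the change of the OA effect, 22 became 8 with no filter, 39 with quantile normalization, 14 with medians equalized, 130 with array weights, 12 with the muscle covariate, 67 with the block within each time, and 7 to 80 with 1 array left out. For 8 minus 2 weeks in sham, 1 called member became 5 with no filter and 2 with medians equalized, array weights or the replicate block, and 1 to 2 with 1 array left out; over all probe sets 2979 became 6938 with no filter and 1523 with a filter at log2 6. In OA, 3 called members became 7 with no filter and 5 with quantile normalization, and 5430 probe sets became 9461 with no filter and 2326 with the muscle covariate. The causes were not tested, apart from the number of probe sets or arrays that a filter or a smaller fit changes by construction. The share of higher calls over time went from 66.6% to 50.6% (medians equalized) and 52.6% (quantile) in sham, and from 63.7% to 43.9% and 49.7% in OA. Apart from Spry2 at 8 weeks and Spry4 in sham, the replicate block changed no other member's call.

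With array weights the sign turned for Fgfr1 1372447_at (0.04) and Spry2 (-0.07) in OA minus sham at 2 weeks, Fgfr3 (0.05) and Spry1 (-0.06) in OA minus sham at 8 weeks, Dusp6 1382778_at (-0.07) in change of the OA effect. With quantile normalization added the sign turned for Fgfr1 1387498_a_at (0.00) in OA minus sham at 2 weeks, Spry1 (-0.01) in OA minus sham at 8 weeks, Spry1 (-0.07) in 8 minus 2 weeks in sham, Dusp6 1377064_at (-0.04) and Dusp6 1382778_at (-0.01) in change of the OA effect. With the muscle covariate the sign turned for Fgfr2 (-0.39), Spry4 (0.22), Dusp6 1377064_at (0.28), Dusp6 1382778_at (-0.12) and Dusp6 1387024_at (0.24) in OA minus sham at 8 weeks, Fgfr2 (-0.56) and Dusp6 1387024_at (0.79) in 8 minus 2 weeks in OA, Spry4 (0.24), Dusp6 1382778_at (-0.15), Dusp6 1387024_at (0.69) and Fgf13 (0.10) in change of the OA effect, Dusp6 1387024_at (0.11) in 8 minus 2 weeks in sham. With array medians equalized the sign turned for Fgfr2 (-0.02) in 8 minus 2 weeks in OA, Fgfr3 (-0.08) in 8 minus 2 weeks in sham, Spry1 (-0.01) in OA minus sham at 8 weeks. None of these differences was called. With 1 array left out, the sign of some uncalled differences turned, with these lowest and highest values. In OA minus sham at 2 weeks, this held for Fgfr1 1372447_at (-0.14 to 0.08), Fgfr1 1387498_a_at (-0.23 to 0.07), Spry2 (-0.18 to 0.20), Spry4 (-0.19 to 0.18), Dusp6 1382778_at (-0.09 to 0.20), Fgf1 (-0.47 to 0.04), Fgfbp1 (-0.04 to 1.68) and Errfi1 (-0.28 to 0.02). In 8 minus 2 weeks in sham, this held for Fgfr1 1372447_at (-0.20 to 0.02), Fgfr1 1387498_a_at (-0.27 to 0.03), Fgfr2 (-0.06 to 0.50), Fgfr3 (-0.05 to 0.20), Dusp6 1387024_at (-0.63 to 0.21) and Fgf13 (-0.03 to 0.72). In OA minus sham at 8 weeks, this held for Fgfr2 (-0.07 to 0.46), Fgfr3 (-0.12 to 0.09), Spry1 (-0.17 to 0.19), Spry4 (-0.42 to 0.13), Dusp6 1377064_at (-0.49 to 0.08) and Fgf1 (-0.30 to 0.66). In change of the OA effect, this held for Fgfr2 (-0.34 to 0.22), Spry1 (-0.01 to 0.35), Spry4 (-0.37 to 0.17), Dusp6 1377064_at (-0.27 to 0.31), Dusp6 1382778_at (-0.13 to 0.15), Dusp6 1387024_at (-0.54 to 0.30), Fgf13 (-0.47 to 0.28) and Fgf1 (-0.06 to 0.90). In 8 minus 2 weeks in OA, this held for Fgfr2 (-0.04 to 0.28), Fgfr3 (-0.28 to 0.02), Dusp6 1387024_at (-0.63 to 0.00), Fgf9 (-1.13 to 0.08) and Fgf1 (-0.15 to 0.76). Called member differences kept their sign in all alternatives. The alternatives for single genes kept direction and side of the threshold in 2030 cases, turned the sign in 96, lost a call in 89 and gained one in 21. Dim probe sets limit the ligands, Dusp4 and the time comparisons, and 3 arrays a group limit the rest.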
